A study of Mus musculus with 2 samples.

Results

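Keratins are the intermediate filament proteins of epithelial cells, and 8 of them were followed here in the embryonic mouse ureter. They were Krt8, Krt18, Krt7 and Krt19 of simple epithelium, Krt5, Krt14 and Krt15 of basal cells and Krt20 of superficial cells. For these 8 gene names, themselves picked with earlier results of these data known, every probe that carried one of them was taken. This gave 10 probes of the 39429 on the array and 8 of the 20909 genes whose probes could be tested. All 8 genes had a probe well above background in the mutant and the control RNA of both arrays.

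Keratin filaments are built from pairs of a type I and a type II chain. Krt5, Krt7 and Krt8 are type II chains, and Krt14, Krt15, Krt18, Krt19 and Krt20 are type I chains. Simple epithelia are known for Krt8 and Krt18, to which Krt7 and Krt19 are added in ducts. The basal layer of stratified epithelia is known for Krt5 with Krt14 or Krt15, and the surface cells of the mature urothelium, the lining of the urinary tract, for Krt20. Pairing stabilises the proteins, so an unpaired chain is usually broken down.

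RNA of ureters dissected from NMRI mouse embryos at stage E13.5 was compared on 2 two-colour arrays, each of which held 1 mutant and 1 control pool. The mutant genotype was Pax2-cre/+;Fgfr1(fl/?);Fgfr2(fl/fl), and the control genotype was Fgfr1(fl/?);Fgfr2(fl/?) without the Cre. The question mark stands for a wild-type or a floxed allele, and embryos of both Fgfr1 genotypes were put together in the mutant pools, so the mutant pools may mix loss of Fgfr2 with loss of both receptors. Floxed alleles were carried by the control pools too. On array 1 the pools were female and the mutant was labelled with Cy5, and on array 2 they were male and the mutant was labelled with Cy3. Sex, dye orientation and array therefore cannot be told apart. Pax2 is active in the nephric duct, from which the ureteric epithelium grows, so the Cre acts in part of the tissue while the pools also held mesenchyme. In such a mixture, fewer epithelial cells and less keratin RNA per cell cannot be told apart. The labels do not say how many embryos a pool held, so the p-values below do not measure the spread between embryos. They set the mean of these 2 arrays against a spread that limma draws mostly from all genes. This is because a gene has 1 residual and 6.30 prior degrees of freedom.

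Between 67.8% and 77.0% of probes were well above background in the 4 channels, and 0 spots were saturated. The ratios of all genes were wider on array 2 (SD 0.32 on the log2 scale) than on array 1 (SD 0.21). With limma's moderated test and Benjamini-Hochberg adjustment, 6 of 20909 genes had an adjusted p under 0.05, which is 0.0287% of them, and 844 had an unadjusted p under 0.05. The 2 probes of Fgfr2, the targeted receptor, had ratios from 0.057 to 0.27 and none was lower on both arrays. No source used here places these probes inside or outside the deleted segment, so they do not check the labels. Detection of the listed markers cannot check the tissue label, because most probes were well above background in each channel. All 14 mesenchyme markers, among them Tbx18 and Foxf1, and all 16 general epithelial markers, among them Cdh1 and Epcam, were well above background in some channel. So were 9 of 10 listed gut markers, without Cdx2, and 7 of 12 listed epidermis markers, without Ivl and Krtdap. The same held for 11 of 12 listed liver markers, 10 of 12 of skeletal muscle, all 12 of leukocytes and all 14 erythroid ones.

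The probes the results turn on are shown here, because 2 members have a pair of probes that gave different readings. Sequences and coordinates are from the array design on mm9, written 5′ to 3′ on the strand of the transcript. A run of 30 bases is a piece of a 60-base probe whose coordinates are given whole. Capitals mark a polyadenylation signal (AATAAA) in the first Krt8 and the first Krt5 probe and the stop codon that ends the open frame in the Krt15 probe.
Krt8, brighter probe, chr15:101827138-101827197, minus strand: aaAATAAAgcctcagctggctctgtcaact
Krt8, dimmer probe, chr15:101828827-101828886, minus strand: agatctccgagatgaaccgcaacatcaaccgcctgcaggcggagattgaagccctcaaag
Krt18, chr15:101862341-101862400, plus strand: ggatggcagagtggtgtccgagactaatga
Krt19, chr11:100002392-100002451, minus strand: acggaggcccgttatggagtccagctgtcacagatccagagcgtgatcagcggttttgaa
Krt5, brighter probe, chr15:101537514-101537573, minus strand: tgacttcctccagagtctgtccAATAAAat
Krt5, dimmer probe, chr15:101542056-101542115, minus strand: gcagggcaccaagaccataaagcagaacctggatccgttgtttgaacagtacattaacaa
Krt15, chr11:99993331-99993390, minus strand: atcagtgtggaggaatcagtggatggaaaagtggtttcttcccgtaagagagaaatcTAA
Krt20, chr11:99289776-99289835, minus strand: ataagaacacagcacaaggtgattgacatg

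The 2 probes of Krt8 lie 1629 bases apart and those of Krt5 4482 bases apart. In each pair the brighter probe holds a polyadenylation signal and the dimmer one does not, and all 4 probes have an open reading frame across their 60 bases. The Krt7 probe lies at chr15:101253718-101253777. The Krt14 probe is drawn from a stretch of 606 bases at chr11:100064683-100065288, so its 60 bases are not contiguous in the genome. GC content ranged from 40% to 55% over the 10 probes. The type II genes and Krt18 are on chromosome 15 and the other type I genes on chromosome 11. In the order of protein-coding genes in RefSeq, Krt8 and Krt18 are neighbours and so are Krt15 and Krt19. Whether any probe also binds RNA of another keratin was not tested.

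None of the 8 keratins passed the test between mutant and control pools, against 0.0287% of all genes. The mean ratios of Krt18 and Krt8 were lower in the mutant on both arrays, and those of Krt19, Krt15, Krt7, Krt5 and Krt14 were higher on both. Krt20 was higher on array 1 and lower on array 2. The 2 of 8 members lower on both arrays stand beside 21.4% of all genes, and the 5 of 8 higher on both beside 22.1%. The median of the members' mean log2 ratios was 0.077, and the median over all genes was 0.0044. All log2 ratios below are mutant over control, after the dye exchange on array 2 was accounted for. The plots of levels and of ratios give the same probes in each pool and on each array.

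**Figure D1:**
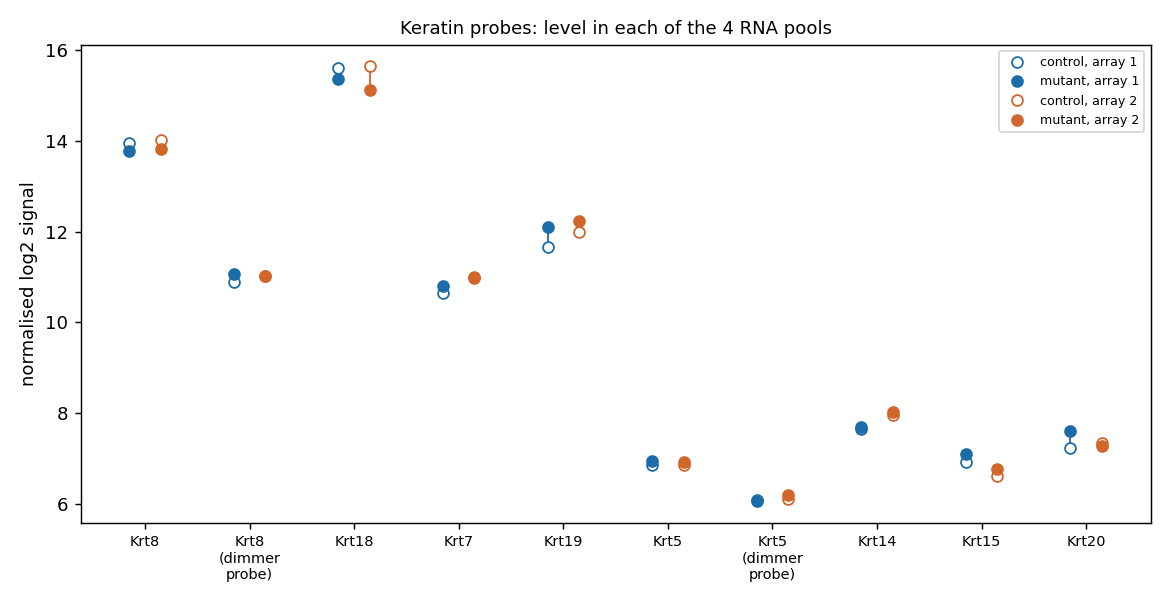
Normalised log2 signal (vertical axis) of the 10 keratin probes in the 4 RNA pools, with control pools as open and mutant pools as filled circles and the pools of 1 array joined by a line. Levels of different probes are not comparable with each other, and the widest gap within an array is that of Krt18 on array 2, at 15.64 in the control and 15.13 in the mutant pool.

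**Figure D2:**
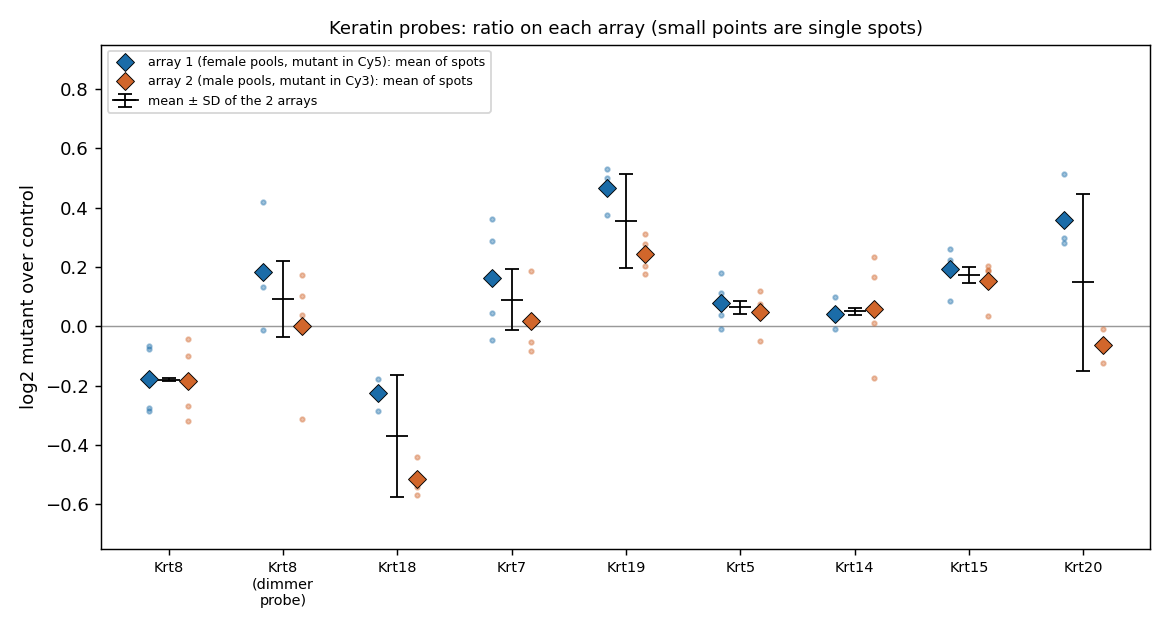
Log2 ratio of mutant over control (vertical axis) for the 9 keratin probes that were well above background, with single spots as small points, the mean of spots on each array as diamonds, and the mean ± SD of the 2 arrays in black. Krt18 lies below 0 and Krt19 above 0 in every spot, whereas Krt20 lies above 0 on array 1 and below 0 on array 2.

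Krt18, the type I chain of simple epithelia, had the lowest ratio of the 8. Its normalised log2 level was 15.37 in the mutant and 15.60 in the control pool of array 1. On array 2 the level was 15.13 in the mutant and 15.64 in the control pool. Both mutant pools were below both control pools. The difference was -0.23 on array 1 and -0.52 on array 2, with a mean of -0.37 ± 0.21 (SD, n = 2 arrays). This is 1.29-fold lower, with 1.17-fold on array 1 and 1.43-fold on array 2. On each array 3 of 4 spots were used, as the other one carried an outlier flag. These spots ranged from -0.29 to -0.18 on array 1 and from -0.57 to -0.44 on array 2, so the ranges of the arrays did not overlap. In limma's test the unadjusted p was 0.0483 and the adjusted p 1, with a 95% interval from -0.74 to -0.0036. Under median centring in place of loess, the ratio of Krt18 was -0.14 on array 1 and -0.94 on array 2.

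Krt8, the type II partner of Krt18, was read differently by its 2 probes. At the brighter probe, the log2 level was 13.77 in the mutant and 13.95 in the control pool of array 1, and 13.83 and 14.01 on array 2. Here too both mutant pools were below both control pools. The log2 ratio was -0.18 on each array (mean -0.18 ± 0.0051, SD, n = 2 arrays), or 1.13-fold lower, with a limma unadjusted p of 0.260 and an adjusted p of 1. Its spots ranged from -0.29 to -0.066 on array 1 and from -0.32 to -0.044 on array 2, a spread within each array far above the gap between the array means. The dimmer probe had levels of 11.07 in the mutant and 10.89 in the control pool of array 1, and of 11.02 in both pools of array 2. Its log2 ratio was 0.18 on array 1 and 0.00016 on array 2 (mean 0.092 ± 0.13, SD, n = 2 arrays), with spots from -0.012 to 0.42 and from -0.31 to 0.17. The 2 probes thus lay on opposite sides of 0 on array 1. With the mean of both probes in place of the brighter one, Krt8 had a ratio of 0.0035 on array 1 and -0.092 on array 2, and was no longer lower on both arrays. With median centring in place of loess its mean was -0.35.

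Krt8 minus Krt18, taken as a difference of log2 ratios within each array, was 0.049 on array 1 and 0.33 on array 2 (mean 0.19 ± 0.20, SD, n = 2 arrays). The 2 partners differed by little on array 1, and Krt18 was the lower of them on array 2. The difference was not tested.

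Krt19, a small type I chain of ducts that lacks most of the tail domain, had the highest mean ratio of the 8. Its log2 level was 12.11 in the mutant and 11.65 in the control pool of array 1. On array 2 it was 12.24 in the mutant and 11.99 in the control pool. Both mutant pools were above both control pools. The log2 ratio was 0.47 on array 1 and 0.24 on array 2, with a mean of 0.36 ± 0.16 (SD, n = 2 arrays), or 1.28-fold higher. Its spots ranged from 0.38 to 0.53 on array 1 and from 0.18 to 0.31 on array 2, all above 0. The limma unadjusted p was 0.0514 and the adjusted p 1, with a 95% interval from -0.0028 to 0.71. With median centring in place of loess the mean was 0.20, and 0.087 on array 2.

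Krt7, a type II chain of ducts, was closer to 0. Its log2 level was 10.81 in the mutant and 10.65 in the control pool of array 1, and 10.99 and 10.97 on array 2. The control pool of array 2 was above the mutant pool of array 1, so the groups overlapped. Mutant over control was 0.16 on array 1 and 0.017 on array 2 (mean 0.090 ± 0.10, SD, n = 2 arrays), with a limma adjusted p of 1 and a 95% interval from -0.26 to 0.44. Spots lay on both sides of 0 on each array, from -0.046 to 0.36 and from -0.083 to 0.19. With median centring the mean turned to -0.046, and with outlier spots kept it was 0.14. The ratio of Krt7 was below that of Krt19 by 0.31 on array 1 and by 0.23 on array 2, a mean difference of -0.27 ± 0.056 (SD, n = 2 arrays) that was not tested.

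Krt19 and Krt18 were set against each other after their values were seen. The difference of their log2 ratios was 0.69 on array 1 and 0.76 on array 2 (mean 0.73 ± 0.047, SD, n = 2 arrays), or 1.65-fold. As the highest and the lowest of 8 members were picked, this difference describes the spread within the family and was not tested.

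Of the basal keratins, Krt5, the type II chain of the basal layer, had 1 probe above background. At that probe the log2 level was 6.93 in the mutant and 6.85 in the control pool of array 1, and 6.92 and 6.87 on array 2. Both mutant pools were above both control pools, by little. On the log2 scale the ratio was 0.080 on array 1 and 0.048 on array 2 (mean 0.064 ± 0.022, SD, n = 2 arrays), and the spots of each array lay on both sides of 0. The limma adjusted p was 1, with a 95% interval from -0.28 to 0.41. In the authors' deposited table the mean was 0.13. At the other Krt5 probe, 0% of spots were well above background in each of the 4 channels, so no ratio is given for it.

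Krt14, the type I partner of Krt5, gave a similar reading. Its log2 level was 7.69 in the mutant and 7.65 in the control pool of array 1, and 8.02 and 7.97 on array 2. The 2 pools of an array were closer to each other than to the pools of the other array, and the groups overlapped. This gave a log2 ratio of 0.042 on array 1 and 0.059 on array 2 (mean 0.051 ± 0.012, SD, n = 2 arrays), with a limma adjusted p of 1 and a 95% interval from -0.29 to 0.40. Krt5 minus Krt14 was 0.037 on array 1 and -0.011 on array 2.

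Krt15, a type I chain of basal cells, was slightly higher in the mutant pool on each array. Its log2 level was 7.11 in the mutant and 6.91 in the control pool of array 1, and 6.76 and 6.61 on array 2. Across arrays the groups overlapped, since the control pool of array 1 was above the mutant pool of array 2. All spots were well above background except in the control channel of array 2, where 75% were. The log2 ratio was 0.19 on array 1 and 0.15 on array 2 (mean 0.17 ± 0.027, SD, n = 2 arrays), or 1.13-fold higher, with all 8 spots above 0. The limma unadjusted p was 0.277 and the adjusted p 1, with a 95% interval from -0.17 to 0.52. This was the member whose size moved most with the background correction. Its mean was 0.25 with an offset of 16 in place of 50, 0.41 in the scanner's processed signals and 0.45 in the authors' deposited table. An offset is added to each signal before the ratio is taken and pulls the ratios of dim probes toward 0. With an offset of 16, the means of Krt5 and Krt20 were larger as well, at 0.090 and 0.18. The mean of Krt14 hardly moved, at 0.055, and was 0.043 in the processed signals.

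Krt20, the type I chain of superficial cells, went opposite ways on the 2 arrays. Its log2 level was 7.60 in the mutant and 7.24 in the control pool of array 1. On array 2 it was 7.28 in the mutant and 7.35 in the control pool. The mutant pool of array 1 was the highest of the 4, and the other 3 lay within a narrow band. Its ratio was therefore 0.36 on array 1, with spots from 0.28 to 0.52, and -0.064 on array 2, with spots from -0.12 to -0.0095. The mean was 0.15 ± 0.30 (SD, n = 2 arrays), with a limma adjusted p of 1 and a 95% interval from -0.24 to 0.54. In the processed signals the gap was wider, at 0.66 on array 1 and -0.27 on array 2. In the authors' deposited table it was 0.63 and -0.26.

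**Figure D3:**
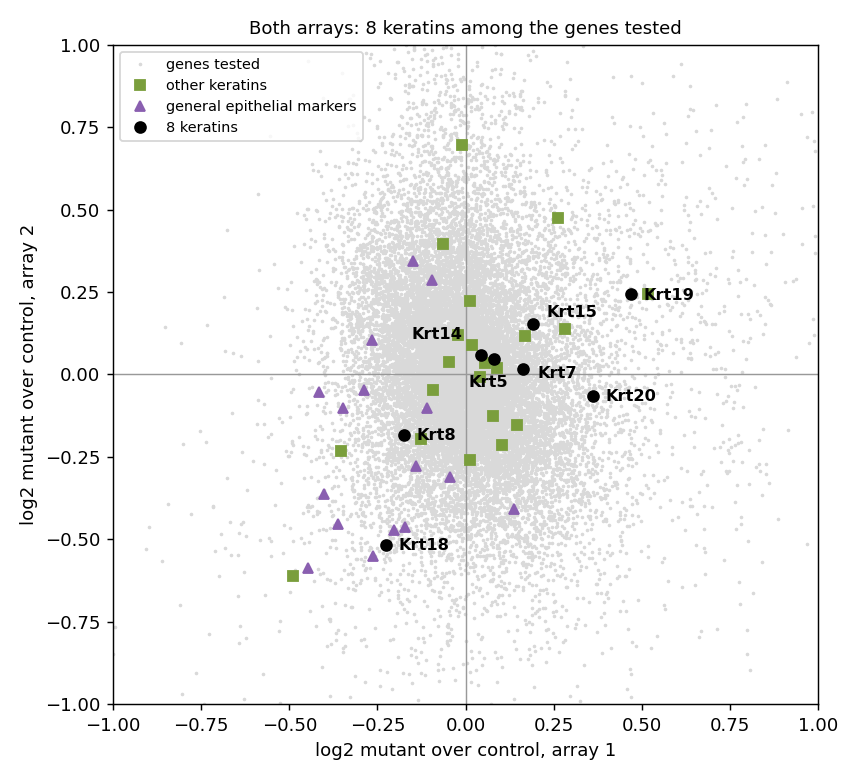
Log2 mutant over control on array 1 (horizontal) and array 2 (vertical) for all genes tested (grey), the 8 keratins (black), the other tested keratins (green squares) and general epithelial markers (purple triangles); 307 genes lie outside the axes. Krt18 lies among the epithelial markers in the lower left, whereas Krt19 and Krt15 lie in the upper right.

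**Figure D4:**
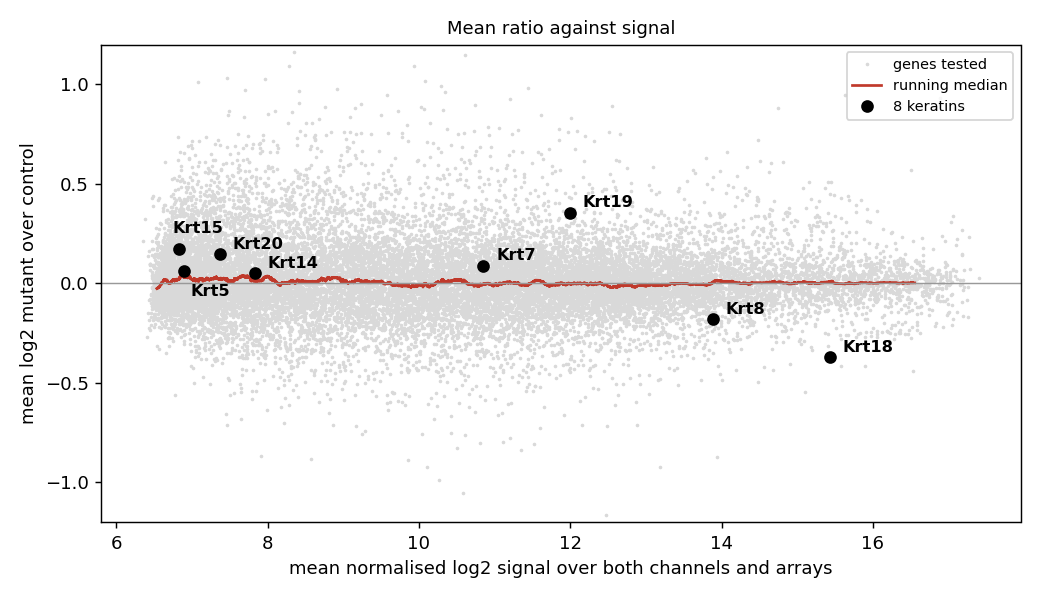
Mean log2 ratio of mutant over control (vertical) against mean normalised log2 signal (horizontal) for all genes tested (grey), with a running median of genes ordered by signal (red) and the 8 keratins (black); 19 genes lie outside the vertical axis. The running median stays near 0 over the whole range of signal, while Krt18, at a mean of -0.37, and Krt8, at -0.18, lie below it and Krt19, at 0.36, above it.

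The array named 46 other keratin genes. Of these, 31 had a probe above background in some channel, and 21 passed the filter and were tested. None passed the limma test (0.0287% of all genes did), and 3 had an unadjusted p under 0.05 (844 of all 20909 genes had). Of the 21 tested, 4 were lower on both arrays (21.4% of all genes), 8 were higher on both (22.1%) and 9 went opposite ways, with a median ratio of 0.045. Of the 21, 1 (Krt33b) passed the filter through the control pools alone. Krt4 and Krt17, chains of stratified epithelia, were not well above background in any channel, and Krt13, a chain of layers above the basal one, had ratios of 0.039 and -0.0079. These 3 were chosen for naming after their values were seen.

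Krt23, a type I chain whose gene lies beside Krt20 in the RefSeq order, was the keratin with the lowest ratio on the array among those tested. Its log2 level was 9.34 in the mutant and 9.83 in the control pool of array 1, and 9.43 and 10.04 on array 2. Both mutant pools were below both control pools. The log2 ratio was -0.49 and -0.61 (mean -0.55 ± 0.086, SD, n = 2 arrays), with a limma unadjusted p of 0.00714 and an adjusted p of 0.860. Krt42, a type I chain, had ratios of 0.52 and 0.25, and a second probe of it was not tested for lack of signal. Krt75, a type II chain of hair follicles, had ratios of 0.26 and 0.47, and its mean of 0.37 was 0.69 in the processed signals. Krt36, a hair keratin, had ratios of -0.35 and -0.23 at its brighter probe, and -0.24 and 0.31 at another, so its probes did not read alike. Krt80, whose gene lies beside Krt7, had ratios of 0.28 and 0.14. Krt1, a type II chain of the upper epidermis, had ratios of -0.13 and -0.20. Each of the last 5 had a limma adjusted p of 1.

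Genes listed as partners or anchors of keratin filaments were then taken. Of 18 listed, 16 were tested, 0 passed (0.0287% of all genes did), 6 were lower on both arrays (21.4%) and 1 was higher on both (22.1%), with a median log2 ratio of -0.089. Eppk1, which encodes epiplakin, a linker that binds keratin filaments, had ratios of -0.21 and -0.80 (limma unadjusted p 0.0275, adjusted p 1). Krtcap3, named for an association with keratinocytes and not with keratin filaments, had ratios of -0.25 and -0.23. Krtcap2, named in the same way, had ratios of -0.049 and -0.14. Both are among the 6 that were lower on both arrays. Perp, a membrane protein of desmosomes, the junctions to which keratins attach, had ratios of 0.27 and 0.17 and was the 1 member higher on both arrays. Jup, which encodes plakoglobin of desmosomes, and Pkp1 were listed but did not pass the filter.

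Among the other intermediate filament genes all 13 listed were tested, 0 passed (0.0287% of all genes did), 1 was lower on both arrays (21.4%) and 6 were higher on both (22.1%), and the median ratio was 0.077. Nefm, a neurofilament chain, had ratios of 1.22 and 1.32 (mean 1.27 ± 0.073, SD, n = 2 arrays, limma adjusted p 0.0792), and passed with an offset of 16 (adjusted p 0.0365). Ina, another neuronal filament chain, had ratios of 0.39 and 0.34. Lmnb1, a chain of the nuclear lamina, had ratios of -0.079 and -0.90.

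All 19 listed regulators of keratin genes and of epithelial layers were tested and 0 passed (0.0287% of all genes did). Of these, 12 were lower on both arrays (21.4% of all genes) and 2 higher on both (22.1%). Their median ratio was -0.18 (-0.10 on array 1, -0.31 on array 2). In limma's test 7 had an unadjusted p under 0.05, as had 844 of all 20909 genes. Elf5, an ETS factor of epithelia, had ratios of -0.63 and -0.60 (limma adjusted p 0.738). Ehf, another epithelial ETS factor, had ratios of -0.12 and -1.03 (adjusted p 1). Grhl3, a grainyhead factor of surface layers, had ratios of 0.65 and 0.41 (adjusted p 0.945). Trp63, the factor that marks basal cells, is named here after its values were seen, with ratios of 0.27 and -0.31.

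Of 8 surface genes of superficial cells, 5 were tested, 0 passed (0.0287% of all genes did), 1 was lower on both arrays (21.4%) and 2 were higher on both (22.1%). The median of their mean ratios was -0.040, although the medians on the single arrays were 0.082 and 0.18. Upk3a, a uroplakin of the plaques on superficial cells, had ratios of 1.45 and 1.24, with a limma adjusted p of 0.0718. It passed with an offset of 16 (adjusted p 0.0349), with both channels above background (0.0437) and with outlier spots kept (0.0415). Upk1b, another uroplakin, had ratios of 0.49 and 0.54 (adjusted p 0.942), and its mean of 0.52 was 1.26 in the processed signals and 1.25 in the authors' deposited table. Krt20 was not high on both arrays as these 2 were. Upk1a, the other uroplakin tested in this list, went opposite ways as well, with ratios of 0.082 and -0.37. So did Mal, with -0.26 and 0.18. Cldn8, a tight junction claudin, had ratios of -0.24 and -0.17.

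Markers of cell types that carry keratins were read beside these ratios. All 16 general epithelial markers were tested, 0 passed (0.0287% of all genes did), 12 were lower on both arrays (21.4%) and 0 higher on both (22.1%). Their median ratio was -0.22 (-0.23 on array 1, -0.29 on array 2). Spint2, an inhibitor of surface proteases, had ratios of -0.45 and -0.59 (limma adjusted p 0.943). Prss8, a surface protease, had -0.26 and -0.55, and Cldn4, a claudin of tight junctions, -0.36 and -0.45. The 4 that went opposite ways were Cdh1 (-0.26 and 0.10), Epcam (-0.095 and 0.29), Cldn7 (0.14 and -0.41) and Marveld3 (-0.15 and 0.35). The mean log2 level of the 16 was 10.13 and 10.14 in the mutant pools and 10.36 and 10.35 in the control pools, so the groups did not overlap. These lower mean levels of the list move with those of Krt18 and the brighter Krt8 probe and against those of Krt19 and Krt15. Their part in the result was not tested.

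Of the epidermis markers 7 of 12 were tested and 0 passed (0.0287% of all genes did), with 2 lower on both arrays (21.4%) and 1 higher (22.1%). Calml3, a calmodulin-like protein of keratinocytes, had ratios of -0.28 and -0.51, and Sprr1a, a cornified envelope precursor, 0.42 and 0.20. Their mean level was 8.79 and 8.56 in the mutant and 8.64 and 8.76 in the control pools. Of the mesothelium markers 7 of 10 were tested, 1 was lower on both arrays (21.4%) and 4 were higher (22.1%), and their median ratio was 0.11. Aldh1a2, an enzyme of retinoic acid synthesis, had ratios of -0.36 and -0.29, Bnc1 0.32 and 0.057, and Lhx9 0.13 and 0.23. Their mean level ranged from 9.33 to 9.47 in the mutant and from 9.31 to 9.52 in the control pools. Of the gut endoderm markers 7 of 10 were tested and 0 passed. Fabp1, a fatty acid carrier of gut and liver, passed the filter through the mutant pools alone and Vil1 and Cdh17 through the control pools alone, so no count or median is given for this list. Gpa33, a surface antigen of gut epithelium, had ratios of 0.11 and 0.34.

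Liver, which has Krt8, Krt18 and, in its bile ducts, Krt7 and Krt19, was marked by 12 genes, of which 11 were tested and 0 passed (0.0287% of all genes did). Apoa1 and Apob passed the filter through the mutant pools alone, so no count, median or mean level is given for this list. Afp, the fetal serum protein of liver, had ratios of 2.22 and 0.78 (limma adjusted p 0.548). Serpina1a had ratios of 1.99 and 0.97, and Alb, serum albumin, 1.60 and 0.45. The mean level of the 11 was 8.94 and 8.22 in the mutant and 7.83 and 7.90 in the control pools. The liver markers' ratios were higher on array 1 than on array 2. The ratios of Krt18, Krt19 and Krt20 were higher on array 1 too, and that of Krt14 was not. For Krt8 (brighter probe), Krt5, Krt7 and Krt15 the gap lay within the SD of their spots on each array. In the authors' deposited table the ratio was higher on array 2 for Krt5 (0.12 and 0.15), Krt7 (0.13 and 0.14) and Krt15 (0.44 and 0.46). How many of all genes were higher on array 1 was not counted. The part of liver in the result was not tested.

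Markers of leukocytes, erythroid cells, skeletal muscle and mesenchyme were read too. Of 12 leukocyte markers 9 were higher on both arrays (22.1% of all genes were) and 2 passed (0.0287%), as S100a8 and S100a9, calcium-binding proteins of neutrophils, rose with a limma adjusted p of 0.0143 each. Their ratios were 1.98 and 2.07 for S100a8 and 1.98 and 2.44 for S100a9, and these calls were lost with median centring (adjusted p 0.157 each), with no filter and with channels fitted separately. Csf1r, a receptor of macrophages, had ratios of 0.77 on each array and did not pass, and with the mean of its probes it had 0.41. Erythroid markers were represented by the globin genes Hbb-b2 (1.14 and 0.76), Hba-a2 (1.48 and 0.38) and Hba-a1 (1.32 and 0.48), and none of these 3 passed. Of 9 skeletal muscle markers tested 7 were higher on both arrays (22.1%), and none passed (0.0287%). Myh3, an embryonic myosin, had ratios of 0.56 and 1.47, Myog, a muscle regulator, 0.88 and 0.84, and Myh8 0.60 and 1.10. Of 14 mesenchyme markers 7 were lower on both arrays (21.4%), 3 were higher (22.1%) and none passed (0.0287%), and the median ratio was -0.21. Foxf1 had ratios of -0.64 and -0.82, Tbx3 -0.37 and -0.50, and Tbx2 -0.047 and -0.67. The mean level was 9.98 and 10.10 in the mutant and 9.34 in each control pool for leukocytes. For skeletal muscle it was 8.48 and 8.59 against 8.02 and 7.95, and for mesenchyme 13.66 and 13.59 against 13.73 and 13.84. What these cells contribute to the keratin ratios was not tested.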

How the data were processed

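For each of the 2 two-colour arrays, 150 ng of total RNA went into the labelling. The spots' mean and local background signals were used as raw intensity, per the file headers, and the submitters' processing notes name Agilent Feature Extraction 10.7.3.1. Processed signals, which the file headers give as intensity after subtraction of background and dye normalization, served as an alternative. A further alternative was the authors' deposited table, a score per probe and array that reads as a signed fold. Set against the processed signals it correlated at 0.973 and 0.991, which fixes its direction as mutant over control. Its column medians were 1, and its centring is unknown.

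In limma 3.58.1 (R 4.3.3), normexp with offset 50 corrected the background and loess with span 0.3 normalised each array, control spots having weight 0. Spots with an outlier flag (3.35% and 3.05%) were dropped, those of a probe averaged and array 2 turned. A probe was tested where a share over 0.5 of its spots was well above background in the same group on each array, which kept 27474 probes, and the brightest stood for its gene. Names followed RefSeq accessions in the GRCm38.p6 gene table (28328 probes matched). Ratios were tested against 0 with lmFit and eBayes (1 residual and 6.30 prior degrees of freedom) and Benjamini-Hochberg adjustment over all genes, with a threshold of 0.05. The test was run on simulated data. Levels are log2 values after loess and Aquantile. A slide effect could not be examined, since the arrays shared 1 slide.

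The members and the gene lists were chosen with earlier results of these data known. Named were all members, the 6 other keratins with the largest mean ratio the same way on both arrays, any called gene and up to 3 such genes per list. Some further genes, among them those of the surface, epithelial and erythroid lists that went opposite ways, were named after their values were seen. Ratios of 2 arrays are too few to rank genes by likeness to a member, so none is named for it.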

Additional observations from a re-analysis of the deposited data

Results flagged for a closer look

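The log2 ratio of Krt20 was 0.36 on array 1, with female pools, and -0.064 on array 2, with male pools, so the 2 arrays went opposite ways. Its spots did not overlap between the arrays. The difference between the arrays was not tested, and the sex of the pools, the dye orientation and the array cannot be told apart.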

How the results depend on the processing

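Each keratin was recomputed under 10 other settings, and none of the 8 was called in any of them (lowest limma adjusted p 0.860). The mean ratio of 7 keratins kept its sign in all 10, and that of Krt7 turned to -0.046 under median centring (limma adjusted p 0.948), which shifted the median of all genes to -0.085. With the mean of probes, 1 member was lower on both arrays. Under median centring 3 members were lower and 4 higher on both, and in the processed signals 4 were higher on both. Among other keratins, the count lower on both arrays was 8 with no filter. The count higher on both arrays was 4 in the processed signals and 14 with no filter. With 1 array left out only the sign on the other array was counted, which is a looser measure. By it, 8 were lower and 13 higher on array 1, and 9 were lower and 12 higher on array 2. Means ranged from -0.54 to -0.37 for Krt18, from -0.35 to -0.044 for Krt8, from 0.20 to 0.36 for Krt19 and from 0.17 to 0.45 for Krt15. Over all genes, 6 were called, against 0 under median centring, with no filter and with channels fitted separately, 4 with the mean of probes, 8 in the authors' deposited table, 10 with no background correction, 11 in the processed signals, 11 with both channels above background, 11 with outlier spots kept and 13 with an offset of 16. S100a8 and S100a9 were no longer called under median centring (adjusted p 0.157 each), with no filter (1 each) or with channels fitted separately (0.0653 and 0.0800), while Upk3a was called with an offset of 16, both channels above background or outlier spots kept, and Nefm with an offset of 16. Dim genes had larger ratios in the processed signals, such as Eppk1 (-0.80), Calml3 (-0.73), Bnc1 (0.52) and Lhx9 (0.38), and with the mean of probes Spint2 had -0.32, Cldn4 -0.24, Foxf1 -0.47 and Ina 0.23. With each probe as its own feature, a setting added after the data were seen, 6 were called. The test is paired by construction, since each array gives 1 ratio of its mutant to its control pool. Krt5, Krt14, Krt15 and Krt20 lie at low signal, which limits their ratios more than those of Krt8, Krt18, Krt7 and Krt19.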
